A study of Homo sapiens with 4 samples.

Results

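The genes described here are those of the phosphatase calcineurin (*PPP3CA*, *PPP3CB*, *PPP3CC* and *PPP3R1*), of its regulators (*RCAN1*, *RCAN2* and *RCAN3*) and of the NFAT transcription factors (*NFATC1*, *NFATC3* and *NFAT5*). The 10 genes were chosen by name, because *RCAN3* is among the few genes whose RNA synthesis was higher after depletion of IWS1. Of the 10 genes, 8 are among the 10147 genes of the deposited table, and *RCAN2* and *PPP3CA* were not analysed here. The authors listed only genes that passed a threshold of median TT-seq reads per kb. RNA synthesis was measured by TT-seq, in which a short pulse of the nucleoside analogue 4sU labels newly made RNA that is then isolated and sequenced. The cells were K562, a human chronic myelogenous leukaemia line, edited so that IWS1, a factor bound to elongating RNA polymerase II, carries an N-terminal dTAG in control and treated cells alike. The dIWS1 group received 500 nM dTAG7, a ligand that triggers degradation of the tagged protein, for 1 h, the control group received the solvent DMSO for 1 h, and both were labelled with 500 µM 4sU for 5 min, with 2 libraries in each group. No group without the tag was analysed here.

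Calcineurin is a phosphatase switched on by calcium and calmodulin. It consists of a catalytic A subunit (*PPP3CA*, *PPP3CB* or *PPP3CC*) and a regulatory B subunit that binds calcium (*PPP3R1* in most tissues). Active calcineurin removes phosphates from NFATC proteins, which then enter the nucleus, while RCAN proteins bind calcineurin and restrain it. *RCAN1* is itself a classical target of NFAT, through an internal start of transcription. *NFAT5* shares the DNA-binding domain of the family but lacks the calcineurin docking region and responds to osmotic stress. The pathway is best known from T cells, muscle and heart rather than from erythroleukaemic cells.

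The deposited table gives means over libraries, and the whole reads behind each mean were recovered as 3 columns, 1 control column and 2 dIWS1 columns. The control column entered the means with double weight, either as 1 library entered 2 times or as the summed reads of 2 libraries with exactly equal size factors. It was counted here as 1 sample, so the control has no replicate spread of its own. The columns held 29832118 reads in genes for control, and 20684301 and 20886697 for dIWS1 column 1 and column 2. The columns carry no replicate numbers, and the numbers 1 and 2 are only names. Levels are reads divided by the size factors from spike-in RNAs, called normalized reads, and a log2 ratio is the log2 of dIWS1 over control with 0.5 added to each normalized read number. Over the 8900 genes averaging 100 normalized reads or more the median log2 ratio was -0.47 in column 1 and -0.36 in column 2, and 239 genes (2.69%) had a mean log2 ratio above 0. In these bulk libraries, fewer cells and less new RNA per cell cannot be told apart. Of 13 erythroid and leukaemia genes that mark K562 cells 12 are listed, among them *GATA1* and *TAL1*, and of 7 lymphoid genes 1 is listed, *CD3D*, with 135 reads in control and 80 and 77 in dIWS1. *IWS1* itself had 3684 reads in control and 2334 and 2427 in dIWS1, which is no check of the depletion, because dTAG7 acts on the protein.

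Sequence upstream of the starts of *RCAN3* and *RCAN1* is shown because these genes of 1 family lay on opposite sides of 0. The sequences are those of RefSeq on GRCh38.p14, read in the direction of transcription, and capitals mark the NFAT core GGAAA or its complement TTTCC. The first line is the 250 bases before the first of 3 *RCAN3* starts in the RefSeq promoter table, chr1:24502586-24502835 on the plus strand, and it lies within the RefSeq span of the gene, which begins further upstream. The second line is the 250 bases before the outermost *RCAN1* start, chr21:34615114-34615363 on the minus strand. The third line is the part outside annotated exons of the window before an internal *RCAN1* start, chr21:34526964-34527072 on the minus strand.
RCAN3: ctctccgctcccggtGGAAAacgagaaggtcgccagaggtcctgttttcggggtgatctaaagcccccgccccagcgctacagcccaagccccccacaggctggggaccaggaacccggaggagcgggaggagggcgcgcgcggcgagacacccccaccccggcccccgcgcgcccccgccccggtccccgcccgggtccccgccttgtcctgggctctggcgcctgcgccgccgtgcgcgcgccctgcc
RCAN1 outer start: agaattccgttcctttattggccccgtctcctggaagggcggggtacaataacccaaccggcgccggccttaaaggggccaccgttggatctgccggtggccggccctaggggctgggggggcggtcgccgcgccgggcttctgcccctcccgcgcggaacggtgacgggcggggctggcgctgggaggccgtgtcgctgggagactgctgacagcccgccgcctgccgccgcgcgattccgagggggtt
RCAN1 internal start: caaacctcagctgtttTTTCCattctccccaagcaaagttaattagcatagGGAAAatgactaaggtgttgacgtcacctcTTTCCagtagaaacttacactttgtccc
The window of *RCAN3* held 1 core match, as did 1 of its 2 other windows, and that of the outer *RCAN1* start held 0. The internal *RCAN1* window held 4 matches in its 250 bases, 3 of them in the stretch printed. It was picked from 6 *RCAN1* windows, and the other 5 held 0 matches. With 1 start per gene, 56.0% of 27305 RefSeq promoters of 250 bases held at least 1 match on either strand and 1.92% held 4 or more. The windows of *RCAN3* and of the outer *RCAN1* start resembled each other in composition, with 30 CpG dinucleotides each, a GC content of 76.4% and 72.0%, and 3 matches each to GGGCGG, the core of the GC box, which was found on either strand in 42.3% of all promoters and in 68.8% of those of genes in the table. The internal window had 1 CpG and no GGGCGG. The table has 1 row per gene, so reads from the starts of *RCAN1* are summed.

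Among the regulators of calcineurin, RNA synthesis of *RCAN3* was higher in both dIWS1 columns than in control and that of *RCAN1* was lower on the spike-in scale, though not when scaled to the median gene or to total reads. *RCAN3* (GRCh38, chromosome 1, 24502344 to 24541040) had 245 reads in control, 309 in dIWS1 column 1 and 328 in column 2. Scaled to the spike-ins these were 243 normalized reads in control and 311 and 357 in dIWS1, or 334 ± 32.3 (SD, n = 2). Both dIWS1 values thus lay above the control value. The log2 ratio of *RCAN3* was 0.36 in column 1 (95% interval 0.11 to 0.61) and 0.55 in column 2 (0.31 to 0.80). These intervals are exact binomial intervals and cover counting error only. Both ratios share the 245 control reads, so they are not independent of each other. The increase corresponded to 1.37-fold, and relative to the median gene the log2 ratio of *RCAN3* was 0.87.

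*RCAN1* (chromosome 21, 34516442 to 34615113), the family member known as a feedback inhibitor, had 1265 reads in control and 984 and 952 in dIWS1. Its normalized reads were 1253 in control and 991 and 1035 in dIWS1, so that both dIWS1 values lay below control. The log2 ratio was -0.34 in column 1 and -0.28 in column 2, a smaller decrease than that of the median gene in each column. Scaled to the median gene or to total reads the log2 ratio of *RCAN1* turned positive, at 0.11 and 0.13. Both scalings raise the ratios of all genes. That of *RCAN3*, above 0 on the spike-in scale, could therefore not turn negative under them. The reads of *RCAN3* per 100 reads of *RCAN1*, a ratio within a library to which scaling does not contribute, were 19.4 in control (16.8 to 22.2), 31.4 in dIWS1 column 1 (27.5 to 35.7) and 34.5 in column 2 (30.3 to 39.1). Both dIWS1 ratios were above that of control, which is a description, since the group was chosen for the higher *RCAN3* in this contrast.

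**Figure D1:**
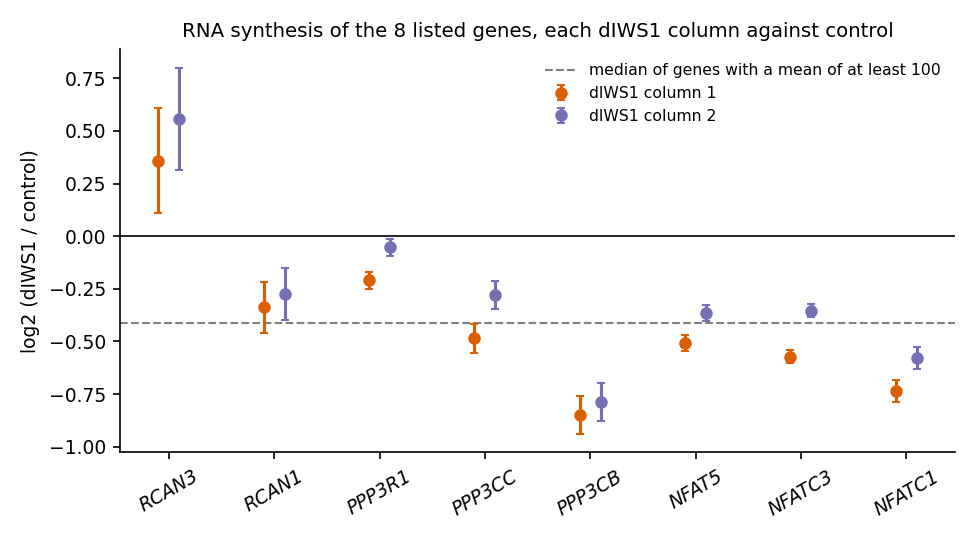
The log2 ratio of dIWS1 over control is plotted for each of the 8 genes, with 1 point per dIWS1 column and bars for the 95% exact binomial counting interval; the dashed line is the median gene at -0.41. *RCAN3* is the gene whose points lie above 0, and the points of *PPP3CB* at -0.85 and -0.79 lie lowest.

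In the calcineurin subunits the values spread from little change to a marked reduction. *PPP3R1* (chromosome 2, 68178857 to 68252532), the regulatory B subunit, had 10612 normalized reads in control and 9182 and 10232 in dIWS1. Its log2 ratios of -0.21 and -0.05 differed from each other by more than the column 2 value differs from 0. The normalized reads of *PPP3CC* (chromosome 8, 22441078 to 22541125), a catalytic subunit known for its role in testis, were 4199 in control and 2999 and 3460 in dIWS1. Its log2 ratios of -0.49 and -0.28 lay on the median gene of each column within 0.10. *PPP3CB* (chromosome 10, 73436433 to 73496024), the other catalytic subunit listed, had 2828 normalized reads in control and 1570 and 1640 in dIWS1, or 1605 ± 49.8 (SD, n = 2). Both dIWS1 values were far below control, with log2 ratios of -0.85 and -0.79 and a change of -43.3%, against -23.3% for *PPP3CC*. Scaled to the median gene or to total reads the log2 ratio of *PPP3R1* turned to 0.28 and 0.31 and that of *PPP3CC* to 0.03 and 0.06, while *PPP3CB* stayed negative at -0.40 and -0.38.

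The balance between subunit genes shifted within the libraries. There were 67.4 reads of *PPP3CB* per 100 reads of *PPP3CC* in control (64.2 to 70.6), 52.3 in dIWS1 column 1 (49.2 to 55.7) and 47.4 in column 2 (44.6 to 50.4). Both dIWS1 ratios were below that of control. For each read of *PPP3CB* there were 3.75 reads of *PPP3R1* in control and 5.85 and 6.24 in dIWS1. For each read of *PPP3CC* there were 2.53 in control and 3.06 and 2.96 in dIWS1. Both ratios were thus higher in each dIWS1 column than in control. Counted per kb of gene span, *PPP3CB* made up 20.3% of the synthesis of the 3 listed subunit genes in control and 14.6% and 13.7% in dIWS1, and *PPP3R1* made up 61.7% in control and 68.9% and 69.1% in dIWS1.

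**Figure D2:**
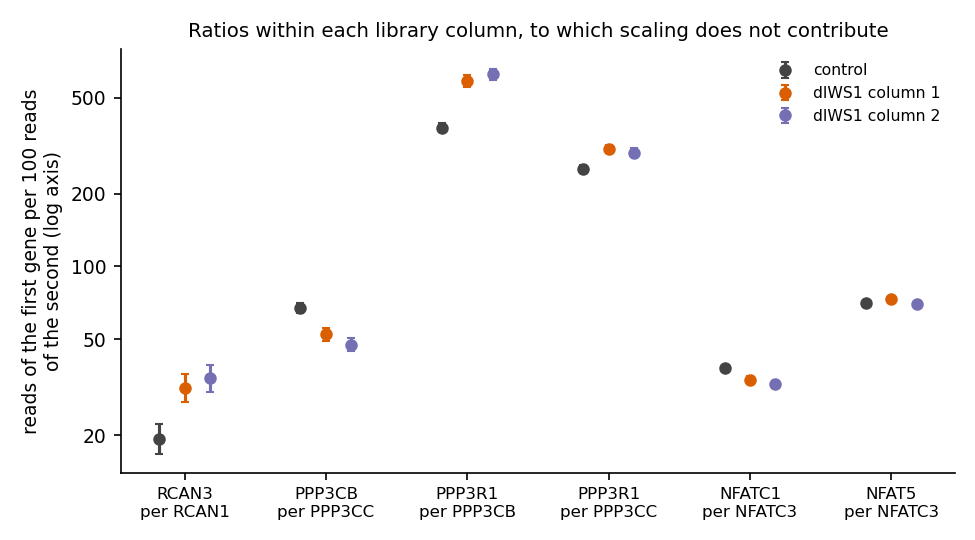
Reads of one gene per 100 reads of another in the same column are plotted on a log axis for control and both dIWS1 columns, with 95% exact binomial counting intervals. *RCAN3* per *RCAN1* and *PPP3R1* per *PPP3CB* are higher in both dIWS1 columns than in control, *PPP3CB* per *PPP3CC* is lower, and *NFAT5* per *NFATC3* is 70.3 in control and 73.5 and 69.9 in dIWS1.

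The 3 listed NFAT genes were lower in dIWS1 on the spike-in scale, *NFATC1* the most, while the mean log2 ratios of *NFATC3* and *NFAT5* lay within 0.05 of 0 when scaled to the median gene or to total reads. *NFATC1* (chromosome 18, 79395930 to 79529323), which is known from lymphocytes, osteoclasts and heart valves, had 7544 normalized reads in control and 4529 and 5048 in dIWS1. The values of *NFATC3* (chromosome 16, 68085370 to 68229259), a broadly expressed calcineurin-dependent factor, were 19853 in control and 13360 and 15525 in dIWS1. *NFAT5* (chromosome 16, 69565966 to 69704654), the factor of the osmotic stress response, had 13962 in control and 9825 and 10848 in dIWS1. In each of the 3 genes both dIWS1 values were below control, and column 1 was below column 2. The log2 ratios were -0.74 and -0.58 for *NFATC1*, -0.57 and -0.35 for *NFATC3* and -0.51 and -0.36 for *NFAT5*. Relative to the median gene the mean log2 ratios were -0.25, -0.05 and -0.02, so *NFATC3* and *NFAT5* moved with the median gene, and the value of *NFAT5* was 0.0065 when scaled to total reads.

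Within the libraries *NFATC1* had 38.0 reads per 100 reads of *NFATC3* in control (37.0 to 39.0), 33.9 in dIWS1 column 1 (32.8 to 35.1) and 32.5 in column 2 (31.4 to 33.6). Its share was lower in both dIWS1 columns. The interval of *NFAT5* per 100 *NFATC3* reads in control, 68.8 to 71.9, overlapped those of column 1, 71.6 to 75.5, and of column 2, 68.1 to 71.7.

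The difference between the dIWS1 columns had the same sign in all 8 genes, with column 1 below column 2. The difference of log2 ratios was -0.06 for *RCAN1* and *PPP3CB*, -0.22 for *NFATC3* and between these values for the others. Over the 8900 genes its median was -0.12 with an SD of 0.13, so the members differed between columns about as other genes did.

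In the fit with limma voom across 10136 genes with reads, with Benjamini-Hochberg adjustment and a limit of 0.05, 6539 genes (64.5%) were lower and 11 (0.109%) were higher. Scaled to the median gene the fit called 556 lower and 347 higher, and scaled to total reads 1062 lower and 1471 higher. Of the 8 members 6 were called lower, *RCAN3* was called higher and *PPP3R1* was not called. The call of *RCAN1* ended in a limma fit without weights (adjusted p = 0.0902), and those of *RCAN1* and *PPP3CC* ended at a limit of 0.01. These counts are a description, since the genes were selected on the same contrast. The median log2 ratio of the members was -0.41, and that of the 8900 genes was -0.41.

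**Figure D3:**
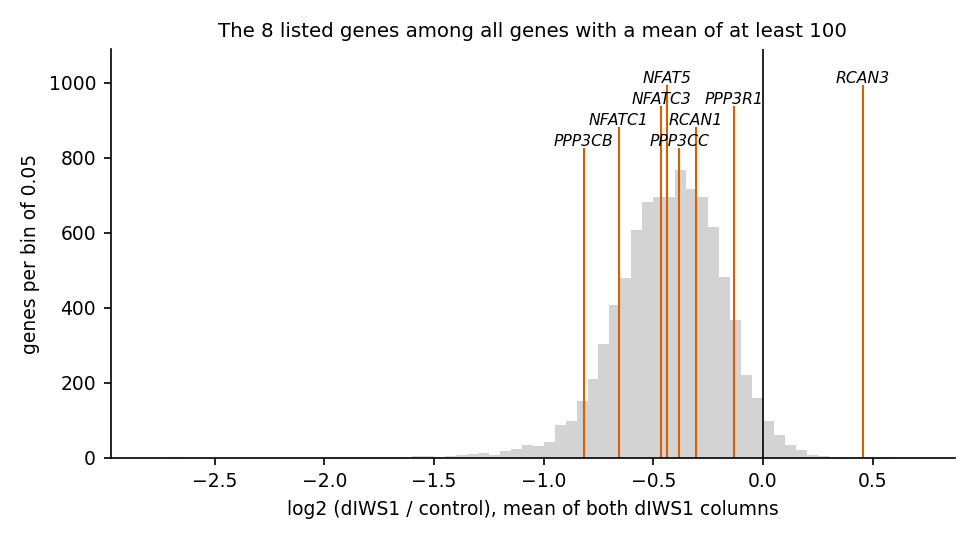
The histogram gives the number of genes per 0.05 of mean log2 ratio for the 8900 genes averaging 100 normalized reads or more, and vertical lines mark the 8 members. The lines of *NFATC3*, *NFAT5* and *PPP3CC* fall in the middle of the histogram, *PPP3CB* at -0.82 to its left and *RCAN3* at 0.46 to its right.

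By log2 ratio *RCAN3* was 5th of the 8900 genes from the top, which is what it was chosen for, and it was 11th in column 1 and 3rd in column 2. The genes next above were *KLHL15* with 0.52, *LINC01419* with 0.50 and *LOC100507639* with 0.47. *KLHL15* encodes a substrate adaptor of a ubiquitin ligase, and *LINC01419* is a long noncoding RNA. The genes next below were *CRISPLD1* with 0.43, *TMEM14A* with 0.41 and *FERMT2*, which encodes an integrin activator, with 0.41. Likeness here means the nearest mean log2 ratio over the 2 dIWS1 columns, and no more. *LINC01419* and *TMEM14A* rest on 112 and 88 control reads, and *TMEM14A* was not called higher. The limit of the calls is one of adjusted p, not of the log2 ratio. Near it, *ADI1* with a log2 ratio of 0.29 was inside and *PGM2L1* with 0.28 was outside.

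The order of the levels was read per kb of gene span. In control *PPP3R1* was highest with 144 normalized reads per kb, followed by *NFATC3* with 138, *NFAT5* with 101, *NFATC1* with 56.6, *PPP3CB* with 47.5 and *PPP3CC* with 42.0. *RCAN1* with 12.7 and *RCAN3* with 6.27 were far below, and 1.48% of the 8900 genes had a lower level per kb than *RCAN3*. The median gene had 45.8, so the RCAN genes lay well below it. The authors listed only genes that passed a threshold of median reads per kb. Whether the listing of *RCAN3* rested on its higher dIWS1 levels was not tested. In dIWS1 the levels were 132 ± 10.1 for *PPP3R1*, 100.4 ± 10.6 for *NFATC3*, 74.5 ± 5.22 for *NFAT5* and 35.9 ± 2.75 for *NFATC1* (SD, n = 2). They were 32.3 ± 3.25 for *PPP3CC* and 26.9 ± 0.836 for *PPP3CB*, which changed places (SD, n = 2). At the bottom were *RCAN1* with 10.3 ± 0.320 and *RCAN3* with 8.63 ± 0.834 (SD, n = 2). The ranges over the dIWS1 columns did not overlap between any neighbours in this order apart from *NFATC1*, 34.0 to 37.8, and *PPP3CC*, 30.0 to 34.6. The level of *RCAN3* per kb was 0.494 times that of *RCAN1* in control and 0.801 and 0.879 times in dIWS1. Each level is per kb of the full RefSeq span. That of *RCAN1* would be too low if an internal start was used, which was not tested.

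**Figure D4:**
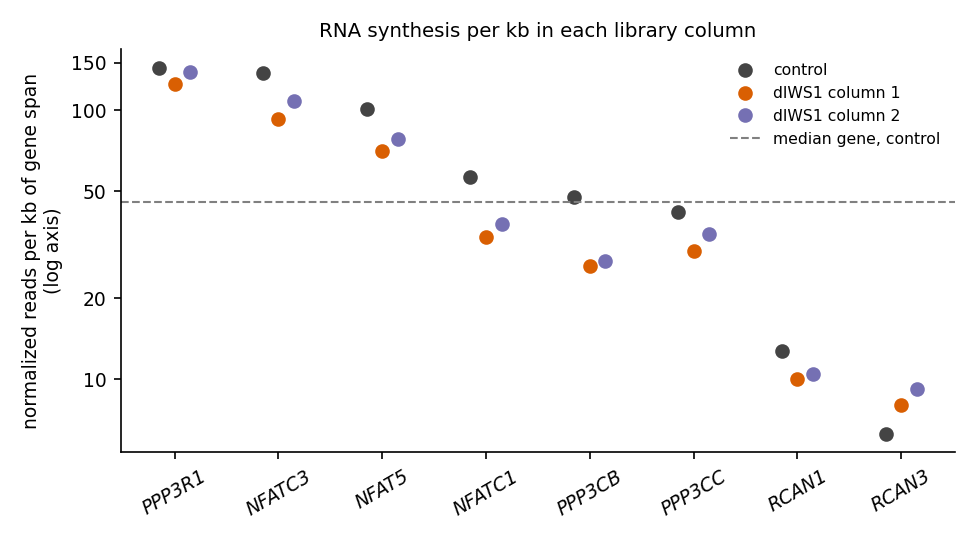
Normalized reads per kb of gene span are plotted on a log axis for the 8 genes in control and both dIWS1 columns, and the dashed line is the median gene in control at 45.8. *RCAN1* and *RCAN3* lie lowest in each column, and *PPP3CB* lies above *PPP3CC* in control but below it in dIWS1.

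Span and GC content, which the choice of genes did not use, varied among the members. The log2 ratio of *RCAN3*, given below by length class, is what it was chosen for. The spans run from 38.697 kb for *RCAN3*, the shortest, to 143.89 kb for *NFATC3*, and the median span of the 8900 genes is 32948 bp. Among genes of 32956 to 72194 bp, the length class of *RCAN3* and *PPP3CB*, the median log2 ratio was -0.35, and *RCAN3* lay 0.80 above and *PPP3CB* 0.47 below it. The other members belong to the class of the longest genes, with a median of -0.50, from which they lay between -0.15 for *NFATC1* and 0.37 for *PPP3R1*. GC content over the span ranges from 37.1% in *PPP3R1* to 56.9% in *NFATC1* (median gene 43.5%), with 42.3% in *RCAN3*.

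The listed genes nearest to each member were set beside it, at distances of up to 1419 kb (*SETD4* beside *RCAN1*). *RCAN3* lies between *NIPAL3*, at a distance of 29.4 kb, and *SRRM1*, at 102 kb, both on its strand. *NIPAL3* had 1017 reads in control and 806 and 711 in dIWS1, and *SRRM1* had 6487 in control and 4969 and 5370 in dIWS1. Both neighbours were lower in each dIWS1 column, with mean log2 ratios of -0.35 and -0.25, on either side of the higher *RCAN3*. *PPP3CB* lies between *MSS51*, at a distance of 2.87 kb, and *USP54*, at 1.51 kb, both on its strand. Their mean log2 ratios were -1.78 and -0.62. *MSS51* rests on 180 reads in control and 62 and 39 in dIWS1. The antisense transcript *PPP3CB-AS1*, which starts within the span of *PPP3CB*, had 258 reads in control and 99 and 92 in dIWS1, a mean log2 ratio of -1.35. The authors counted by strand, so the reads of *PPP3CB* and *PPP3CB-AS1* are kept apart. *PPP3R1* lies 2.62 kb from *PNO1*, with -0.16, and 215 kb from *APLF*, with -0.93. Among the 8900 genes averaging 100 normalized reads or more 2.69% had a mean log2 ratio above 0. Of the 14 flanking genes at that level 13 were below 0, with a median log2 ratio of -0.47. The exception was *NQO1* beside *NFAT5*, an oxidoreductase gene, with 0.02.

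**Figure D5:**
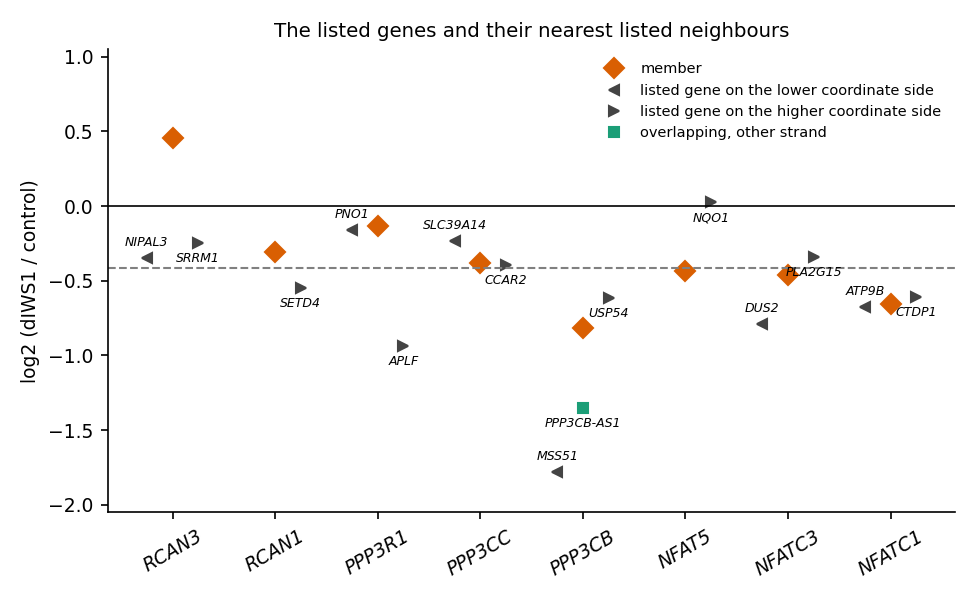
Mean log2 ratios of dIWS1 over control are plotted for each member (diamond) and for the nearest listed genes averaging 100 normalized reads or more on its lower and higher coordinate side (triangles), with the overlapping *PPP3CB-AS1* as a square; the dashed line is the median gene at -0.41. *RCAN3* at 0.46 stands above *NIPAL3* and *SRRM1*, which lie below 0, whereas *NFATC1* lies between its neighbours *ATP9B* at -0.68 and *CTDP1* at -0.61.

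Of a list of 47 other genes of the pathway, 33 are in the table. Of these 24 were called lower, 0 higher and 9 were not called, beside 64.5% lower and 0.109% higher among all genes. Their median log2 ratio was -0.45. Scaled to the median gene 2 were called lower and 3 higher.

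*CALM2* and *CALM3* encode calmodulin, the calcium sensor that activates calcineurin. *CALM2* had 6516 reads in control and 5669 and 5999 in dIWS1, a mean log2 ratio of -0.08, and was not called. *CALM3* had 743 in control and 501 and 510 in dIWS1, a mean log2 ratio of -0.48, and was called lower. Both *CALM3* columns were below control on the spike-in scale, whereas the *CALM2* columns had log2 ratios of -0.18 and 0.02. Reads that match several genes were not counted, because the alignments were unique.

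Upstream of calmodulin, 6 of 7 listed genes of calcium release and entry were called lower, beside 64.5% of all genes. The inositol trisphosphate receptors, which release calcium from the endoplasmic reticulum, had mean log2 ratios of -0.56 for *ITPR1*, -0.71 for *ITPR2* and -0.50 for *ITPR3*. *STIM2*, the calcium sensor of the endoplasmic reticulum, had -0.51. The channel genes differed, with -0.19 for *ORAI1*, which was not called, -0.35 for *ORAI2* and -0.87 for *ORAI3*, the lowest value of the list. *ORAI3* rests on 246 reads in control and 144 and 112 in dIWS1, all lower than control.

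Of 4 listed anchors, inhibitors and drug receptors of calcineurin 3 were called lower, beside 64.5% of all genes. *CABIN1*, an inhibitor of calcineurin, had 7079 reads in control and 4136 and 3995 in dIWS1, a mean log2 ratio of -0.72. *AKAP1*, an anchoring protein of mitochondria, and *PPIA*, the cyclophilin that presents cyclosporin, both had -0.36, and *CHP1*, a calcineurin B homologue, had -0.24 and was not called. *NFATC4*, the further NFAT gene listed, had 244 reads in control and 134 and 140 in dIWS1, a mean log2 ratio of -0.75, with both dIWS1 columns below control.

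Among all genes 64.5% were called lower, and the next counts stand beside that share. Of 6 listed kinases that phosphorylate NFAT and so oppose calcineurin, 4 were called lower. *GSK3B* had -0.56, *CSNK1D* -0.51, *DYRK1A* -0.45 and *GSK3A* -0.43, and *DYRK2* with -0.23 and *CSNK1A1* with -0.20 were not called. Of 10 listed further substrates of calcineurin 8 were called lower, from *TFEB*, a regulator of lysosomal genes, with -0.64, through *MEF2C* with -0.58 to *MEF2D* with -0.35. *DNM1L*, which drives mitochondrial fission, had -0.08 and *MEF2A* -0.30, and neither was called. Of the listed targets of NFAT5, the taurine transporter *SLC6A6* had a mean log2 ratio of -0.70 and was called lower. *SGK1*, a kinase of salt handling, had 1118 reads in control and 1014 and 987 in dIWS1, a mean log2 ratio of -0.08, and was not called.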

How the data were processed

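The study made TT-seq libraries of K562 cells with tagged IWS1 (2 control, 2 dIWS1). Analysed here were 1 control column and 2 dIWS1 columns recovered from 1 deposited table. The authors aligned reads with STAR 2.6.0 to GRCh38 with spike-in sequences, kept unique alignments, counted read pairs per RefSeq gene by strand, removed overlapping genes and fitted DESeq2 with spike-in size factors. The deposited table holds a signal, the mean of counts divided by size factors, and the results of the authors' comparison (log2 fold change, its error and p-values), none of which is printed. The deposited log2 fold change was used to tell which columns are dIWS1 (its direction, dIWS1 over control, is that of the study's legends) and, for 3307 genes with a mean above 2000, to choose the split of reads to within 0.02. The tests had been planned for counts or a table of means, and the latter applied.

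Means were written as sums of whole reads times 3 steps, and 10136 of 10136 genes with a mean above 0 were split. For 6829 genes the mean alone sufficed. The step of the control column carries double weight, so 1 library was entered 2 times, or 2 libraries had exactly equal size factors. It was counted once. Number of unused columns of per-sample values was 0.

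Reads were tested with limma 3.58.1 (voom, R 4.3.3) on the spike-in scale, with Benjamini-Hochberg adjustment. In data simulated for this comparison over 10136 genes, 98 of 100 genes changed by a log2 of 1.0 were called, 38 of 100 changed by 0.5, and 6 of 9936 unchanged ones. Unlike the real data, the simulated data had mostly unchanged genes and no shift between the dIWS1 columns. The simulated rates therefore need not hold for the fit of the real data. The control has 1 column, so p-values rest on the spread between the dIWS1 columns, shared over genes. Part of that spread is a shift common to most genes, with a median of -0.12 over the 8900 genes. Centring on the median gene lowered the standard error of each member, from 0.146 to 0.051 for *PPP3R1* and from 0.143 to 0.110 for *RCAN3*. The p-values therefore do not measure only the spread of single genes, and the error of the control size factor was not measured. Intervals are exact binomial and cover counting error only. Spans came from RefSeq (9351 genes matched by symbol, 169 by gene number, 576 by synonym, 51 unmatched), and exons from GENCODE. Software was Python 3.11.15, numpy 2.4.6, pandas 2.3.3, scipy 1.17.1, numba 0.67.0 and matplotlib 3.10.9.

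The members, the pathway list and the alternatives were chosen with earlier results of these data known. Named are the members, the pathway list, marker genes, *IWS1*, the 3 genes nearest to *RCAN3* above and below, genomic neighbours and genes next to the limit of the calls. Alternatives were other scalings, thresholds, minimum means, pseudocounts, the doubled control, a fit without weights and leaving out each dIWS1 column. The values of 1 gene of the pathway list are not reported here.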

Additional observations from a re-analysis of the deposited data

How the results depend on the processing

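The scaling decides most calls. Centred on the median gene, 556 genes were lower and 347 higher, with 1 and 2 members and 2 and 3 genes of the pathway list, and scaled by total reads 1062 were lower and 1471 higher, with 2 and 2 members and 3 and 5 genes of the list. *RCAN3* was called higher in all fits, which is a description, since it was chosen on this contrast and all fits use the same columns. *PPP3R1* joined it under both scalings, which raise the ratios of all genes. Under these scalings, median-gene centring first, the median log2 ratio became 0.0050 and 0.033 for the members, -0.037 and -0.0094 for the list and 0.00062 and 0.029 for genes averaging 100 normalized reads or more, which follows from the construction of the scalings. The log2 ratio became 0.11 and 0.13 for *RCAN1*, 0.032 and 0.060 for *PPP3CC* and 0.28 and 0.31 for *PPP3R1*, and 0.0065 for *NFAT5* with total reads. The number of higher genes was 61 with the control entered 2 times, 26 without weights, 6 at an adjusted p under 0.01 and 23 under 0.1, and the cause was not tested. Other thresholds, minimum means, weights and the doubled control kept the counts of members and list within 1.5 times. With either dIWS1 column left out (1 column against 1, no test) the log2 ratio was 0.36 to 0.55 for *RCAN3* and the median of the members -0.50 to -0.32. No paired analysis was possible because the columns carry no replicate numbers. The 245 control reads of *RCAN3* limit its precision.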
